A study of Mus musculus with 31 samples.

Results

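Fetal liver hematopoietic stem cells (FL HSC) lacking Cdkn1a were compared with wild type (WT) FL HSC on expression microarrays. The samples were chosen by their labels alone: 3 samples labelled Cdkn1a+/+ and 4 labelled Cdkn1a-/-, which are 7 of the 23 samples of a series that also profiled Crebbp+/- and Ep300+/- FL HSC and Crebbp+/- fibroblasts. Each sample was 1 Affymetrix mouse expression array of cells pooled from 15 embryos taken at 14.5 dpc. The nulls carried the Cdkn1a tm1Tyj allele and the WT embryos were of B6129SF2 mice, both labelled B6/129Sv and obtained as separate stocks of mixed background, so that the Cdkn1a genotype and other differences between the stocks cannot be told apart in any value given here. The deletion is carried by every cell of the embryo, and no transgene or Cre was involved. Livers were frozen viably, thawed and sorted as Sca-1+ Lin- AA4.1+ c-Kit++ cells, and 12 ng of RNA was amplified before hybridization.

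Cdkn1a encodes p21, a cyclin-dependent kinase (CDK) inhibitor that p53 induces and that holds cells at the entry to S phase. In adult bone marrow it is known for keeping stem cells out of cycle, and its loss is known to exhaust them on serial transplantation. Fetal liver stem cells, unlike most adult ones, divide actively. The comparison asks which transcripts, spliced or intronic, differ in such cells when p21 is missing.

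Levels are GCRMA values on a log2 intensity scale. Probe sets were tested when at least 1 of the 7 arrays reached log2(100), which is 6.64, and 20962 of them did. A probe set was called when its limma p-value, adjusted by Benjamini-Hochberg over all of these, was under 0.05 and its change over 1.5-fold. RNA of the positive sort markers that could be named was high in every array, which does not measure the purity of the sort. Kit, the receptor for stem cell factor that defines the c-Kit gate, lay between 12.14 and 13.03, and Cd93, the AA4.1 antigen, between 13.53 and 13.92. Neither gene was called, with log2 changes of 0.28 and 0.09 in null minus WT. Ly6a, which encodes Sca-1, is unnamed in the probe annotation used here. Xist and the Y-linked gene Eif2s3y were both high in all 7 pools, between 13.63 and 14.13 and between 11.17 and 12.51.

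WT sample 3 stood apart from the other arrays. Over the tested probe sets it correlated with them at r = 0.869 to 0.885, whereas the other 6 correlated at 0.969 to 0.989 with each other. Globin and heme genes of red cell precursors set it apart: embryonic Hbb-y was at 14.04 in WT 3 and at 2.15 to 2.35 in the other 6 arrays, and Alas2, the erythroid enzyme of heme synthesis, was at 10.97 against 1.95 to 1.96. The hepatocyte gene Apoh was at 12.42 in WT 3 and no higher than 2.09 elsewhere, and 20 hepatocyte markers reached the minimum in WT 3, against 3 in WT 1 and WT 2 and 5 to 7 in the nulls.

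Summed over each marker list on the linear scale, WT 3 held 16.5 times the erythroid level of the next highest array, 13.5 times the hepatocyte level, 12.7 times the mast cell and basophil level and 3.10 times the granulocyte level. Its macrophage sum was 1.95 times and its megakaryocyte sum 1.39 times that of the next array, and 20 of 22 erythroid, 20 of 24 hepatocyte and 18 of 20 macrophage genes were highest in it. The neutrophil granule gene Camp was at 14.66 in WT 3 and at most 6.68 elsewhere, and Mcpt8, a basophil protease, at 12.43 against at most 6.57. Lymphoid genes did not separate it, at 1.03 times the next array, and its endothelial sum was the lowest of the 7. In such pools more cells of a type and more RNA per cell cannot be told apart, and the part of these transcripts in the differences below was not tested other than by leaving WT 3 out. Each result is therefore given with and without that sample.

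**Figure D1:**
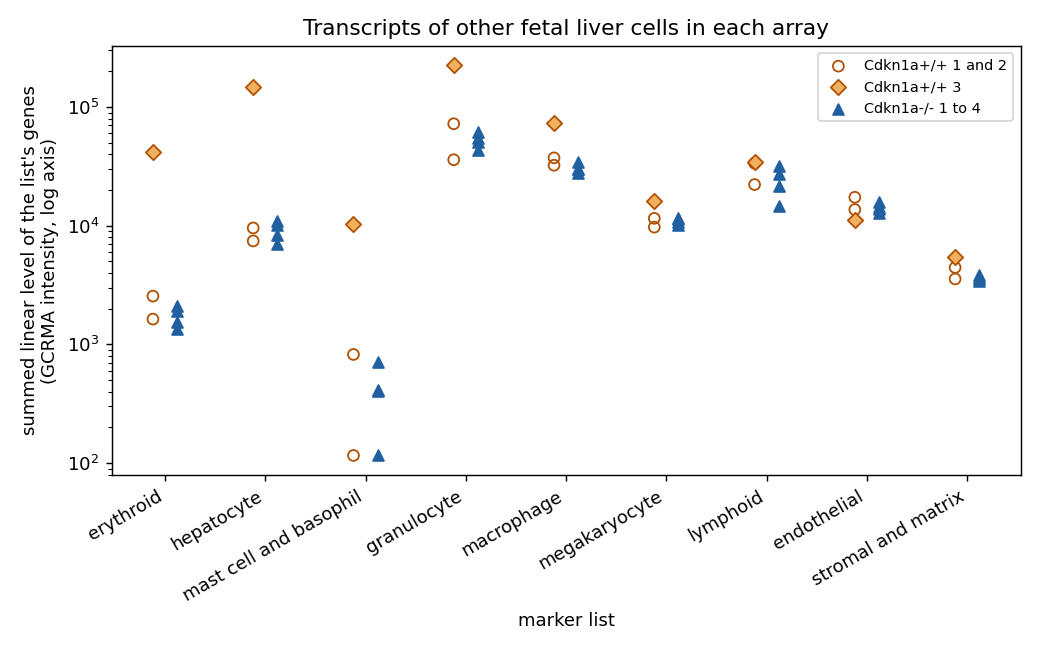
Summed linear GCRMA intensity (log axis) of 9 marker lists in each array. WT 3 (diamonds) lies 16.5, 13.5 and 12.7 times above the next highest array for erythroid, hepatocyte and mast cell and basophil genes. The other WT arrays (circles) and the nulls (triangles) overlap, over a range of 116 to 823 for mast cell and basophil genes and 36020 to 72387 for granulocyte genes.

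A small set of probe sets separated the groups, most of them lower in null. Of 20962 probe sets, 85 were called (0.405%), 74 of them lower in null (0.353%) and 11 higher (0.0525%), and in all 85 the WT and null samples did not overlap. For comparison, 7.88% of all tested probe sets had groups that did not overlap. Of the 74 lower ones, 45 had a null mean below the minimum level and 30 were under 4 in every null, near the floor of the GCRMA scale, and 38 were down 8-fold or more. By gene, 47 were lower and 5 higher, which makes 52 of 10333 tested genes (0.503%). The other probe sets were 20 with no gene named and 3 with several.

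Without WT 3, 83 of 20460 probe sets were called (0.406%), 72 lower and 11 higher. The same 63 probe sets were called with and without it, 55 lower and 8 higher, and of the 22 called only with it all 21 that could be tested kept their sign. The count depended on the other samples as well: 52 were called without WT 1, 87 without WT 2, and 43, 38, 51 and 38 without nulls 1 to 4 in turn. Whichever of the 7 arrays was left out, 33 of the 85 stayed called, 30 lower and 3 higher, and these include Cep85, Trim12a, Trim34a, Trim30d, Ifi202b, Kctd14, Adi1, the most changed Serinc3 probe set, Prdx2, Rbm39, Fam107b, D2hgdh, Pik3ap1, Ctr9 and 2 of 3 Arhgap6 probe sets. At an unadjusted p under 0.05 and over 1.5-fold, 848 probe sets passed (4.05%), 382 lower and 466 higher, and 692 (3.38%) without WT 3, 378 lower and 314 higher, so that the majority direction turned.

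**Figure D2:**
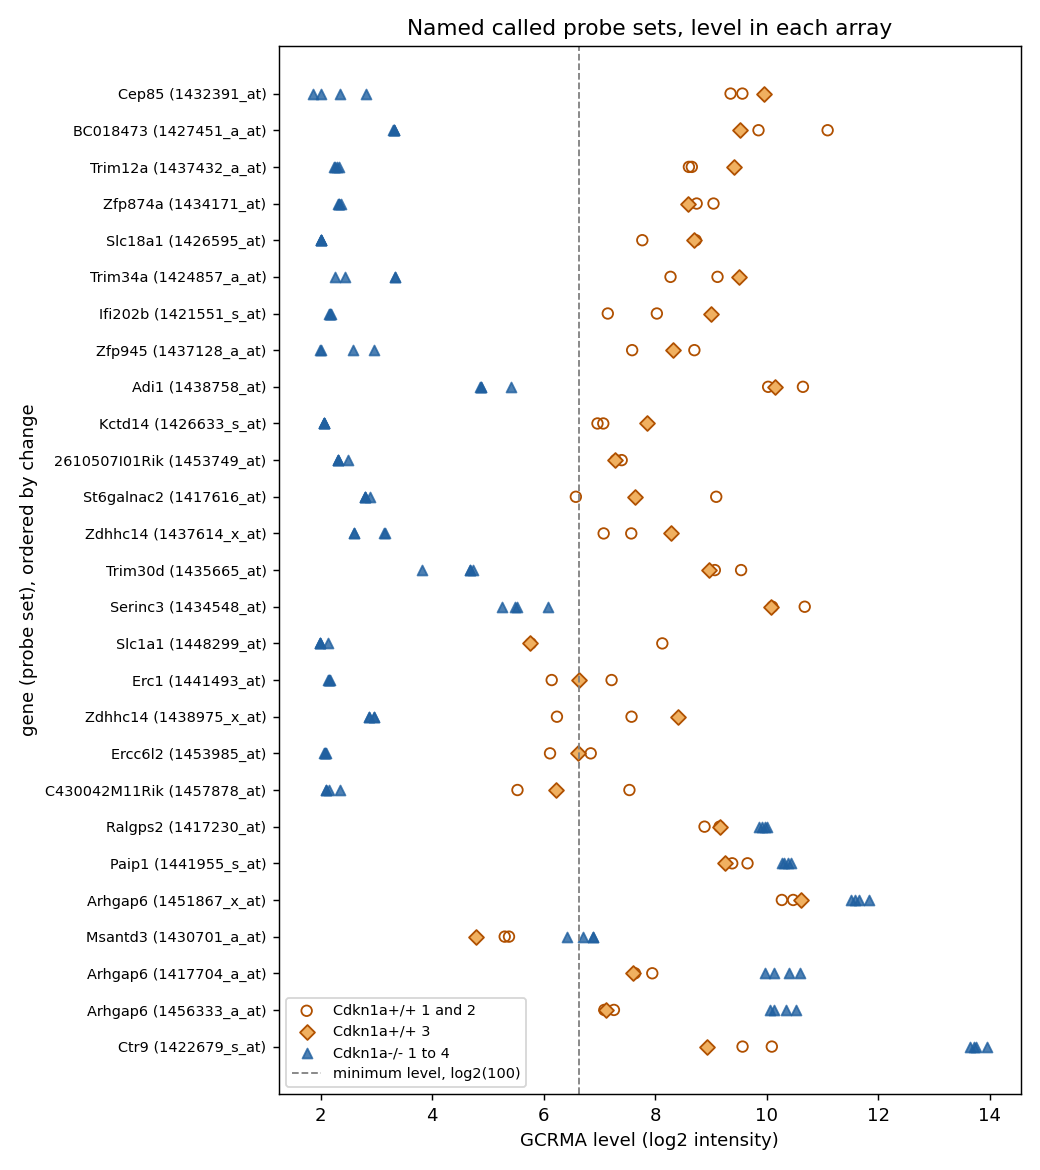
GCRMA level (log2 intensity) in each array for the 27 called probe sets with 1 gene symbol that changed most, 20 lower and 7 higher in null. Nulls (triangles) lie between 1.86 and 6.09 for the lower genes, while the 3 WT samples (circles and diamonds) lie to the right of them without overlap, and Ctr9 shows the reverse with nulls near 13.7.

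Among named genes, Cep85 gave the largest fall. A probe set of Cep85, a centrosomal protein (1432391_at), was at 9.35, 9.57 and 9.96 in WT and at 2.00, 2.34, 2.82 and 1.86 in null, a log2 change of -7.37 (SE 0.26, adjusted p = 1.28e-04). Every null lay near the floor of the scale and far from every WT sample. The anonymous transcript BC018473 was at 11.10, 9.86 and 9.52 in WT and at 3.30 to 3.32 in null (-6.84). Adi1, which encodes the acireductone dioxygenase of methionine salvage, was at 10.03, 10.65 and 10.14 in WT and at 4.88, 4.86, 5.42 and 4.87 in null by 1438758_at, a log2 change of -5.27 (SE 0.21, adjusted p = 1.47e-04), whereas its brightest probe set differed by 0.28. The zinc finger gene Zfp874a fell by 6.46 on the log2 scale. In Zfp945, another zinc finger gene, 1 of 3 probe sets fell, by 5.82, while the brighter 1437127_at was at 8.94 in WT and 9.10 in null and the third differed by -0.03.

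Single genes for transporters and membrane enzymes were also called. Slc18a1, a vesicular monoamine transporter, was at 8.73, 7.77 and 8.70 in WT and at 2.02 in all 4 nulls, a log2 change of -6.38 (SE 0.24, adjusted p = 1.28e-04). The glutamate transporter gene Slc1a1 fell by 4.52 on the log2 scale (adjusted p = 0.0377), with WT values of 8.13, 5.77 and 5.76 that spread far more than the nulls, at 1.99 to 2.14, and stayed called in 1 of the 6 fits with an array left out that tested it. The Slc1a1 probe set reached the minimum only in WT 1, so the filter favoured a lower mean in null. Slc1a5, a neutral amino acid transporter used for glutamine, fell by 2.00 (adjusted p = 0.009), from 10.20, 10.12 and 9.64 to 7.83, 7.91, 8.30 and 7.88. In Kctd14, 2 of 4 probe sets were called, at -5.24 and -4.12, while the 2 brighter ones were at 0.49 and 0.26. St6galnac2, a sialyltransferase, was at -4.96 with the called probe set and at -0.02 with the much brighter 1417617_at, which was at 11.82 in WT and 11.80 in null. Zdhhc14, a palmitoyltransferase, was at -4.78 and -4.50 with 2 of 3 probe sets and at -0.53 with the third. The St6galnac2 call was lost without WT 3, at a log2 change of -5.02 (adjusted p = 0.0603).

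Serinc3, a multipass membrane protein of the serine incorporator family, was the gene with the most probe sets called, 6 of 6. The probe set 1434548_at was at 10.68, 10.10 and 10.07 in WT and 5.52, 5.25, 5.49 and 6.09 in null, a change of -4.70 (SE 0.24, adjusted p = 5.39e-04). The other 5 fell by between 1.08 and 3.27, and the brightest, 1455550_x_at, was at 14.02, 13.71 and 13.74 in WT and 12.75, 12.63, 12.91 and 12.66 in null. Every Serinc3 probe set thus separated the groups, but the size of the fall ranged from 1.08 to 4.70 within 1 gene, and 3 of the 6 passed the threshold only with WT 3. Lbp, the lipopolysaccharide binding protein, and Pik3ap1, a signaling adapter of B cells and macrophages, fell by 2.88 and 2.60. Pik3ap1 was at 11.53, 11.58 and 11.90 in WT and at 8.92, 9.05, 9.35 and 8.94 in null. Lbp was at 10.01, 9.11 and 9.92 in WT and at 6.21 to 7.15 in null, with an adjusted p of 0.0185 with and 0.0636 without WT 3. Lbp stayed called in 1 of the 7 fits that left out an array. WT 3 also held more of the hepatocyte transcripts, whose part in this call was not tested.

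Some genes linked to innate defence were called. By the probe set that stands for each gene in the lists, 24 of all 10332 genes were called (0.232%), and the counts of 2 of 8 Trim, 1 of 5 Ifi200 and 1 of 32 interferon response genes are to be read against that share. Trim5-like genes of chromosome 7 and the Ifi200 genes of chromosome 1 are families of near-identical copies that interferon induces, so that the signal of a probe may be shared between members. Trim12a was at 8.61, 8.66 and 9.41 in WT and at 2.29, 2.24, 2.33 and 2.25 in null, a log2 change of -6.62 (SE 0.20, adjusted p = 6.15e-05). Trim34a fell by 6.13 with 1424857_a_at, from 8.28, 9.12 and 9.51 to 2.44, 2.26, 3.33 and 3.33, and Trim30d by 4.71, from 9.07, 9.54 and 8.97 to 4.74, 3.83, 4.69 and 4.69. Ifi202b was at 7.15, 8.03 and 8.99 in WT and at 2.16 to 2.19 in null, a change of -5.89 (SE 0.39, adjusted p = 0.0018).

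Most of their relatives were not called. Of the 8 Trim genes tested by their brightest probe set, 2 were called, Trim12a and Trim30d. Trim30a, at 13.03 to 13.27 in WT and 13.10 to 13.19 in null, and Trim12c had log2 changes of 0.03 and 0.02. A dimmer Trim30a probe set was at -1.41 (adjusted p = 0.35), so the probe sets of this gene disagreed. Trim21 and Trim6 were at -0.52 and -0.69, with adjusted p-values of 0.218 and 0.577, and a second Trim21 probe set was at 0.78 (0.3). Of 5 Ifi200 genes tested, Ifi202b alone was called, Ifi209 was higher by 1.02 (adjusted p = 0.636; 1.49 and 0.065 without WT 3), and Aim2, the cytosolic DNA sensor, and Mndal were at -0.05 and -0.29. Among 32 further interferon response genes 1 was called, Oasl2, a 2'-5' oligoadenylate synthetase-like gene, at 6.65, 5.82 and 5.89 in WT and 2.57, 2.71, 3.85 and 2.57 in null (-3.20, adjusted p = 0.0272; 0.065 without WT 3). Oasl2 reached the minimum only in WT 1, at 6.65, so the filter favoured a lower mean in null. It stayed called in 1 of the 6 fits with an array left out that tested it. The median of the 32 genes was -0.10, beside 0.03 over 10332 genes. Rsad2 (viperin) and Bst2 (tetherin), which act against enveloped viruses, were lower by 1.77 and 1.65 with adjusted p-values of 0.123 and 0.322, and none of these was called. Xaf1 gave 0.98 with its brighter probe set (0.207) and -1.15 with the other (0.149). In antigen presentation, none of 15 genes was called, and H2-M3, which presents formylated peptides, came closest with 9.36, 8.43 and 9.25 in WT and 7.20, 7.06, 7.39 and 6.43 in null (-1.99, adjusted p = 0.0746).

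The upstream sequence of the 3 called Trim genes is shown because each had a probe set that fell and they lie within a run of 5 tested genes, of which the others were not called. These are the 250 bases before each gene's start in RefSeq (build GRCm38.p6), written 5′ to 3′ along the gene, with capitals marking a match to GAAA followed after any 2 bases by a second GAAA, the core of the interferon-stimulated response element, on either strand.
Trim12a, chr7:104315496-104315745, minus strand: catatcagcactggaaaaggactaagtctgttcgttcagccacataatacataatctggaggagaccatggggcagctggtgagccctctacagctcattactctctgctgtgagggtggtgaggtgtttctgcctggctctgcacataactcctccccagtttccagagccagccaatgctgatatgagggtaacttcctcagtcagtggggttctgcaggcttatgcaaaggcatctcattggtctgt
Trim34a, chr7:104244207-104244456, plus strand: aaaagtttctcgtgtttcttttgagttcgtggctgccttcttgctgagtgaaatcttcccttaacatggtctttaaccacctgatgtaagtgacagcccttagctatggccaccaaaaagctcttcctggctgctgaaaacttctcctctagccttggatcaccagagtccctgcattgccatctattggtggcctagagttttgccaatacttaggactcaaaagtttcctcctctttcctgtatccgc
Trim30d, chr7:104507850-104508099, minus strand: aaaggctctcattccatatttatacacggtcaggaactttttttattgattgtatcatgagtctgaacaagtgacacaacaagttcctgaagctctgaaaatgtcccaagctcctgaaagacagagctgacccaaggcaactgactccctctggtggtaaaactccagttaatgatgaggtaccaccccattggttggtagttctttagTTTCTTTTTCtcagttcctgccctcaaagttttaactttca
Only Trim30d of these 3 held the letters, 41 bases before its start and on the opposite strand. The core was present in 978 of 32851 promoters of the same length (2.98%) and in 2 of the 39 called genes that have an entry (5.13%), Trim30d and 1 of 3 starts of Arhgap6. Ifi202b and Oasl2, which fell, had no match, whereas Rsad2 and Bst2, which were not called, had 1 and 2 matches. Trim12c and Trim30a, which were not called, also held the core, the latter at 1 of its 2 starts.

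Fewer genes had a probe set that rose, and in 2 of them it did so by a wide margin. Ctr9, the scaffold subunit of the PAF1 complex that travels with RNA polymerase II, was at 9.57, 10.09 and 8.94 in WT and at 13.76, 13.95, 13.66 and 13.72 in null by 1422679_s_at, a log2 change of 4.24 (SE 0.26, adjusted p = 0.0012). Only this 1 of the 5 tested Ctr9 probe sets was called, and the other 4 differed by 0.03 to 0.59. The other 5 tested subunits of the complex ranged from -0.09 for Paf1 to 0.26 for Rtf1, and none was called. Arhgap6, an X-linked gene, rose with all 3 of its probe sets, by 3.11, 2.54 and 1.20. By 1456333_a_at it was at 7.26, 7.09 and 7.12 in WT and 10.52, 10.07, 10.13 and 10.36 in null (SE 0.13, adjusted p = 1.92e-04). Msantd3 rose by 1.57, and Paip1, a partner of the poly(A)-binding protein in translation, and Ralgps2 by 0.92 and 0.87. Paip1 lost its call without WT 3 (0.83, adjusted p = 0.0651).

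Leaving out WT 3 added 20 probe sets. The most changed with a gene symbol was Apoe, an apolipoprotein made by hepatocytes and macrophages, at 8.04 and 7.96 in WT 1 and 2 and 5.02, 5.02, 4.97 and 5.14 in null by 1432466_a_at (-2.96, adjusted p = 1.63e-04), while WT 3 was at 10.36. Arsk, a sulfatase, fell by 2.64, Zfp81 by 2.32 and Pbx4, a homeobox partner of Hox proteins, by 1.77. The uncharacterized transcript 3110045C21Rik rose by 2.02.

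The separation often concerned 1 probe set of a gene and not the gene. Of the 52 genes with a called probe set, 34 had more than 1 tested, and in 24 of these every uncalled probe set stayed within 1.5-fold. All probe sets were called in 2 genes, Serinc3 and Arhgap6. The brightest probe set was called in 6 of the 34. Over these genes 54 of 64 uncalled probe sets stayed within 1.5-fold, 7 moved past it in the direction of the call and 3 in the other direction. Probe sets of 1 gene can target different exons, 3' ends or introns, and which part each detects is given here only for those in the study's list of intronic probe sets. Without WT 3 the corresponding count was 22 of 33 genes.

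Cep85 shows the pattern plainly, since its second probe set averaged 9.60 in WT and 9.92 in null (0.32) beside the change of -7.37. In Trim34a, 1426093_at was at 11.16 and 11.01, and in Fam107b the probe set 1448509_at fell from 13.84 to 10.99 while 1416892_s_at was at 13.80 and 13.73. Prdx2, a peroxiredoxin abundant in blood cells, fell by 2.94 with 1430979_a_at but was at 14.14 and 14.18 with 1418506_a_at. Bub1, a kinase of the spindle checkpoint, fell by 1.70 with 1438571_at, from between 7.79 and 8.10 in WT to between 5.99 and 6.43 in null, whereas its brighter probe set was at 12.31 and 12.56. Ctr9 gave a similar picture upwards: its other 4 probe sets differed by 0.03 to 0.59, the largest just past 1.5-fold. Vamp3, Erc1, Itga9, Spata5 and D2hgdh likewise had 1 probe set lower by 2.20 to 4.52 and the rest between -0.23 and 0.23. The called probe sets of Erc1 and Spata5 reached the minimum only in WT 2.

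**Figure D3:**
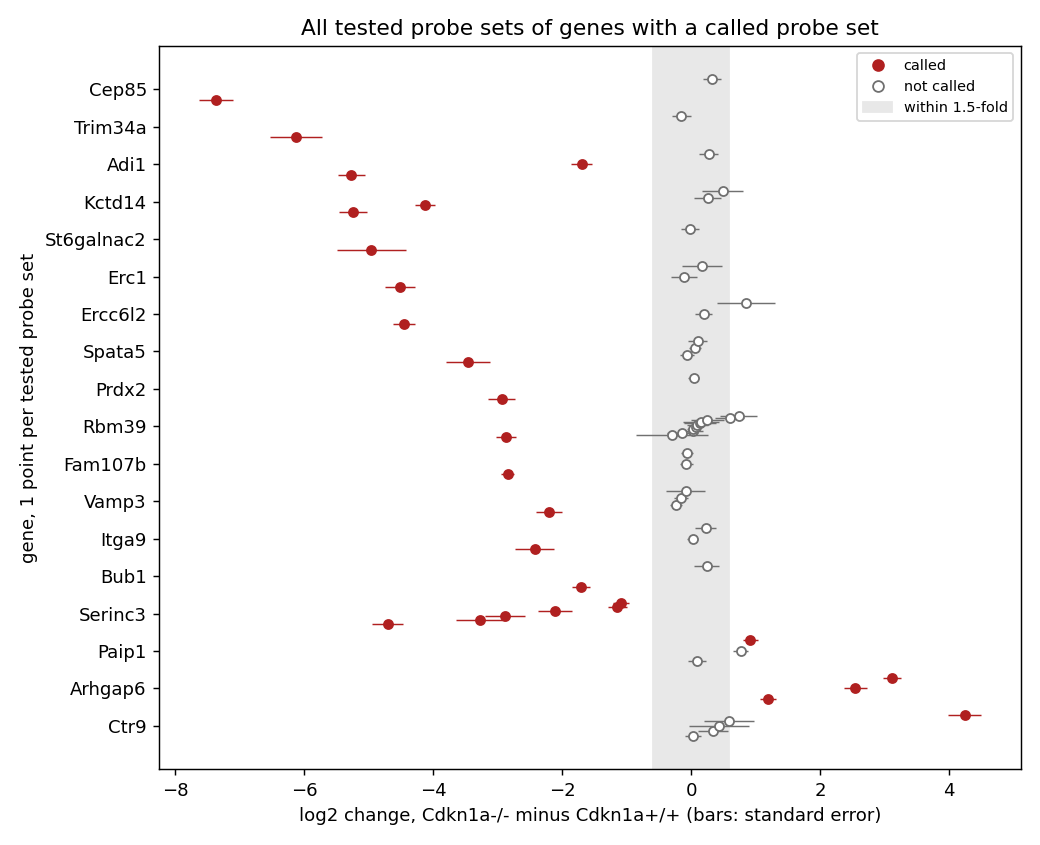
Log2 change, null minus WT, with its standard error for every tested probe set of 18 genes (filled, called; open, not called; grey band, within 1.5-fold). In Cep85, Trim34a and Fam107b the called point lies far from open points in the band. In Ctr9 it lies far from 4 open points, 3 in the band and 1 just past it at 0.59. Only Serinc3 and Arhgap6 have all points filled.

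Several of the called genes were neighbours on a chromosome. In the gene order of RefSeq (GRCm38.p6), 13 of the 52 called genes fell into 6 runs in which at most 5 tested genes separated a called gene from the next. Trim34a, Trim12a and Trim30d lay within 5 tested genes of chromosome 7, St6galnac2 and BC018473 were adjacent tested genes on chromosome 11, as were Serinc3 and Pkig on chromosome 2, and Rprd1b and Lbp lay within 3 tested genes of the same chromosome. Adi1 and Tmem18 on chromosome 12 and Ercc6l2 and Prxl2c on chromosome 13 made up the rest. All 13 were lower in null. Without WT 3, 9 called genes lay in such runs. No background share was computed for such runs. By chromosome, 4 of 394 tested genes were called on chromosome 13 (1.02%), 8 of 821 on chromosome 2 (0.974%) and 5 of 567 on chromosome 8 (0.882%). Next came 3 of 381 on chromosome 19 (0.787%) and 6 of 765 on chromosome 7 (0.784%), beside 0.503% of all tested genes. Without WT 3 the counts on chromosomes 2 and 7 were 6 and 9.

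Genes beside Cdkn1a itself were not called. The 5 nearest tested genes on either side along chromosome 17 were not called, and 8 of the 10, among them Srsf3, a splicing factor, and Stk38, a kinase, differed by no more than 0.22. Pi16, one of these, was at 0.14 with and 0.74 without WT 3. Rab44, which ranged from 7.03 to 10.91 within WT, was at -1.18 (SE 0.94), and Bnip5 at -0.42. The 4 called genes of chromosome 17, Zfp945, Zdhhc14, Mocs1 and C430042M11Rik, lay with 109 to 324 tested genes between them and Cdkn1a.

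For Cdkn1a, 1424638_at was at 7.66, 8.17 and 8.86 in WT and at 6.56, 6.34, 8.07 and 5.30 in null, a log2 change of -1.66 (SE 0.64, adjusted p = 0.648). Null 3 lay within the WT range, and the spread among nulls (SD 1.14) was larger than among WT (SD 0.60). Without WT 3 the change was -1.35 (adjusted p = 0.946). The second probe set, 1421679_a_at, was below the minimum in all 7 arrays, at 2.44 to 3.86 in WT and 2.18 to 2.25 in null. Where these probes lie relative to the deleted part of the gene is not given in the sources used here, so neither checks the genotype labels.

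Whether the lower transcripts are ordinary in FL HSC was looked at in the 4 WT samples of the C57BL/6 FL HSC experiments of the series (2 Crebbp+/+ and 2 Ep300+/+, each the mean of 2 technical replicate arrays). These arrays were normalized separately, so only detection at log2(100) is compared. Of the 74 probe sets lower in Cdkn1a null, 35 reached the minimum in all 4 samples (47.3%) and 22 in none (29.7%), beside 49.3% and 38.0% of all tested probe sets. Of the 36 among them with a WT mean at or above and a null mean below the minimum, 11 reached it in all 4 (30.6%) and 13 in none (36.1%), beside 53.9% and 32.5% of all tested probe sets with a WT mean at or above it. The most changed probe sets of Cep85, at 9.61 to 10.08, Trim12a, at 6.90 to 7.98, and Adi1, at 9.12 to 9.91, were detected there as in the B6129SF2 WT embryos. The called probe sets of BC018473, Ifi202b, St6galnac2 and Slc1a1 were not, with values of 2.21 to 2.54, and were below the minimum in the nulls as well. This concerns probe sets and not genes, since other probe sets of Cep85, Adi1 and St6galnac2 had null means of 9.92, 11.11 and 11.80. Of the 11 higher probe sets, 2 were detected in all 4 and 9 in none, and Ctr9 was at 11.95 to 12.02.

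No CDK inhibitor was called, and at a background of 0.232% of genes a list of this size need not hold a call. All 6 that were tested, Cdkn1a among them, had lower means in null, with a median of -0.60 (-0.49 over the 5 tested without WT 3). Cdkn2c reached the minimum only in WT 3, at 6.96, and Cdkn1c only in WT 1, at 7.13. The filter thus favoured a lower mean in null for both, and the shared direction is no result about the list. Cdkn1b, which encodes the related inhibitor p27, was at 12.84, 12.47 and 12.80 in WT and 12.19, 11.94, 12.29 and 12.24 in null, so the groups did not overlap, with a log2 change of -0.54 (SE 0.14, adjusted p = 0.334). Cdkn1c, which encodes p57, was at -0.66 and ranged from 5.22 to 7.13 in WT. Cdkn2d and Cdkn3 were at -0.32 and -0.18, and at -0.02 and 0.04 without WT 3.

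By their brightest probe sets, the listed cell cycle genes stayed within 1.5-fold between null and WT, and equivalence was not tested. None of 33 cyclin, CDK, RB and E2F genes was called, all 33 stayed within 1.5-fold, and their median was 0.07 with and without WT 3. The same held for 33 DNA replication genes, with a median of 0.07 (0.01 without WT 3), and for 32 mitotic genes, with a median of 0.08 (0.08). At a background of 0.232%, the absence of calls in lists of 32 or 33 genes is no result about them. Over all genes 90.2% stayed within 1.5-fold (95.3% without WT 3), with a median of 0.03 (0.003). Mybl2, an activator of late cycle genes, differed by 0.25, and E2f6, a repressor of the E2F family, by 0.29 with its brighter probe set and by -1.06 with the other (adjusted p = 0.577). The largest differences were those of Orc1, the origin recognition subunit, at 9.36, 9.65 and 9.03 in WT and at 9.58 or more in null (0.48, adjusted p = 0.634), and Nuf2, a kinetochore component, at 0.44 (adjusted p = 0.682).

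Genes of the p53 pathway and of stem cell identity were likewise not called, against the same background. Among 25 p53 pathway genes the median was -0.06, and Trp53inp1 and Zmat3 were at -0.71 and -0.39 (-0.41 and -0.44 without WT 3). Among 10 BCL2 family genes Bok was the highest, at 0.63 (adjusted p = 0.694), and Pmaip1 (Noxa) the lowest, at -0.75 (-0.07 without WT 3). Of 38 stem cell regulators 37 stayed within 1.5-fold with a median of 0.08 (-0.02 without WT 3). Eya1, a transcriptional coactivator and phosphatase, was the exception at 8.28, 7.69 and 7.31 in WT and 7.28, 6.77, 6.62 and 7.03 in null (-0.84, adjusted p = 0.532; -1.06 and 0.28 without WT 3). Angpt1, Fgd5 and Gfi1 differed by 0.28, 0.40 and 0.23, and by no more than 0.09 without WT 3.

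**Figure D4:**
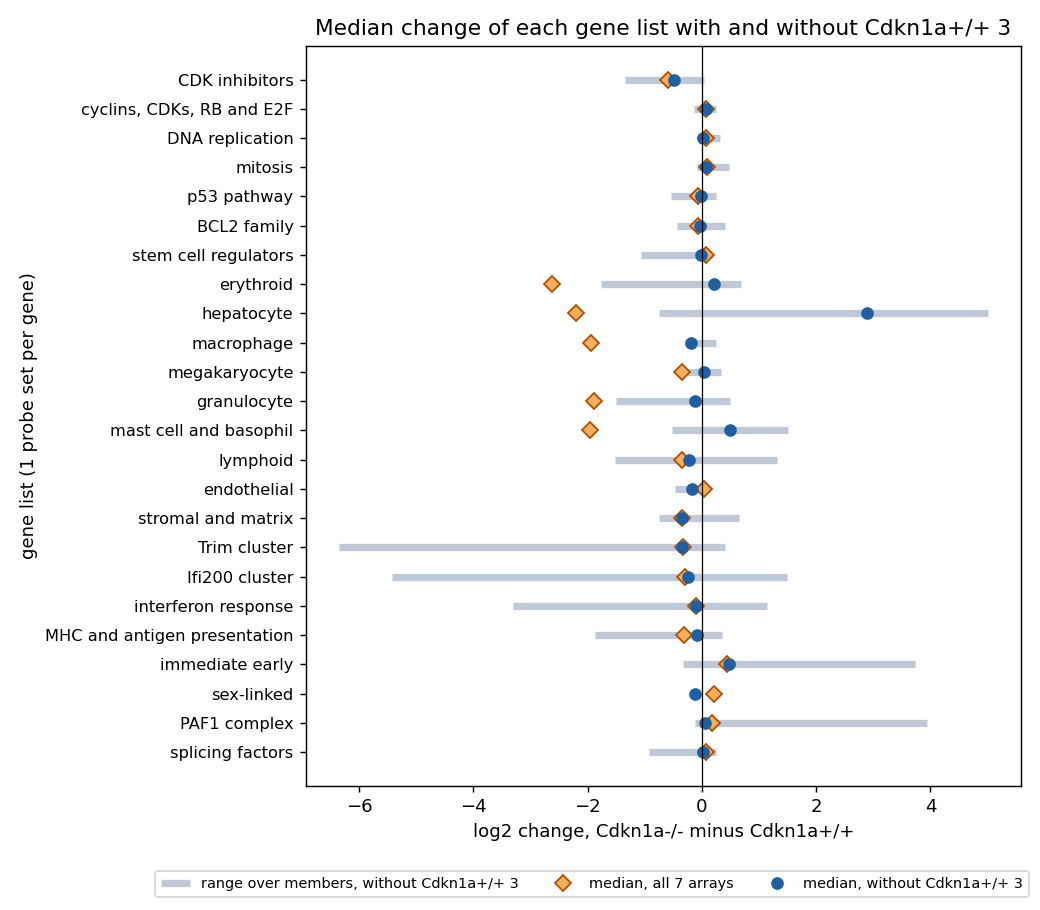
Median log2 change, null minus WT, of each gene list over all 7 arrays (diamonds) and without WT 3 (circles), with the range over members without WT 3 (bars). Cell cycle, p53, BCL2, stem cell and splicing lists sit near 0 either way, whereas the hepatocyte median is -2.21 over 20 tested genes and 2.88 over the 7 tested without WT 3, and the erythroid median -2.62 over 15 and 0.22 over 3, so the members differ.

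None of the immediate early genes, which switch on within minutes of a stimulus, was called. Egr1 was between 9.89 and 11.44 in WT and between 12.34 and 13.11 in null, so that the groups did not overlap (1.81, SE 0.39, adjusted p = 0.219). Jun was at 10.79, 9.70 and 10.51 in WT and 11.54, 12.05, 12.56 and 11.30 in null (1.53, adjusted p = 0.321). Ier3 and Fosb were at 0.73 and 2.98, with adjusted p-values of 0.35 and 0.648. Null 3 had the highest level of all 4 genes. Of 15 immediate early genes 10 were higher and 5 lower, near the split of all genes, of which 6021 of 10332 were higher. Their median was 0.45 (0.47 without WT 3) beside 0.03 for all genes, and 4 passed the unadjusted threshold upwards, which 4.05% of all probe sets passed in either direction. Fos, at 11.38, 9.33 and 12.36 in WT, overlapped with its null values of 11.78 to 12.82.

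Marker genes of other liver cells differed mainly through WT 3. Over all arrays 15 erythroid and 16 macrophage genes were tested and none was called, but only 3 and 6 of them reached the minimum without WT 3. The others were tested only through their level in that array, so their direction was set by the filter. Over the 3 and 6 the medians without WT 3 were 0.22 and -0.19. One red cell gene, also not called, was lower either way: Tfr2, the transferrin receptor of erythroid and liver cells, was at 10.11, 9.28 and 9.23 in WT and 8.17, 7.74, 8.24 and 7.53 in null (-1.62, SE 0.28, adjusted p = 0.11; -1.77 and 0.135 without WT 3), and its other probe set at -2.18 (adjusted p = 0.13). Hnf4a, the hepatocyte nuclear receptor, was at 12.56, 11.96 and 12.50 in WT and 11.40 to 11.76 in null (-0.84, adjusted p = 0.208).

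Some abundant hepatocyte transcripts reached the minimum in nulls and not in WT 1 and WT 2, so without WT 3 they were tested only through the nulls, and none was called. Alb (albumin) was at 3.34 and 3.87 in WT 1 and 2 and at 8.68, 6.94, 8.73 and 9.50 in null, a log2 change of 4.86 (adjusted p = 0.0772), and 14.54 in WT 3. Apoa2 was at 5.54 and 4.20 against 8.15, 6.96, 8.47 and 8.60 (3.18, adjusted p = 0.146), and Ttr (transthyretin) at 2.68 and 2.75 against 8.22, 4.39, 9.61 and 8.67 (5.01, adjusted p = 0.437). The list's summed level overlapped, at 9585 and 7447 in WT 1 and 2 and 7000 to 10864 in null, against 146567 in WT 3. Granulocyte and B cell genes varied among pools of either genotype: S100a8 ranged from 7.28 to 15.68 in WT and from 4.39 to 10.20 in null, and Igll1, part of the surrogate light chain of B cell precursors, was at 4.05 in null 4 and at 8.32 to 9.46 in nulls 1 to 3.

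Intronic probe sets were examined with the study's list of 83, which was drawn up on the Crebbp FL HSC samples and not on these. Intronic signal reports unspliced or partly spliced transcripts, which oligo(dT) priming can pick up at internal A-rich stretches. Of 82 tested, 2 were called, beside 0.405% of all tested probe sets, and both were lower: one of Rbm39, a splicing cofactor, at 9.90, 9.90 and 9.91 in WT and 6.88, 6.99, 7.45 and 6.83 in null (-2.87, SE 0.16, adjusted p = 7.75e-04), and one of Spata5, an AAA ATPase, between 5.69 and 6.76 in WT and between 2.50 and 3.49 in null (-3.46, adjusted p = 0.0137). The Spata5 probe set reached the minimum only in WT 2, at 6.76, so the filter favoured a lower mean in null. Both probe sets were called without WT 3. With each array left out in turn, the Rbm39 probe set stayed called in 7 of 7 fits and that of Spata5 in 2 of the 6 that tested it. The other tested Rbm39 probe sets included the brightest, 1420982_at, at 14.33 and 14.37, and a further intronic one at 0.60 in the opposite direction (adjusted p = 0.643), so that 1 gene gave intronic differences of both signs.

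Over the whole list 71 probe sets were higher and 11 lower in null, with a median of 0.35, beside 0.05 over all tested probe sets. Without WT 3 the split was 49 to 33 and the median 0.06, beside 0.02. WT 3 was the lowest array, with a median deviation of -0.76 from the mean of WT 1 and WT 2, and nulls 1 and 4 were at -0.29 and -0.20 while nulls 2 and 3 were at 0.41 and 0.29. WT 1 and WT 2 themselves were at -0.22 and 0.22, so the nulls lay on both sides of their mean. A comparison within genes covered the 28 whose intronic probe set the annotation names and that had a tested probe set outside the list. Genes whose intronic probe set is unnamed there, such as Angpt1, were left out. In 23 of the 28 with WT 3, and in 22 without it, the intronic change exceeded that of the brightest probe set outside the list. The median difference was 0.39 and 0.20.

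**Figure D5:**
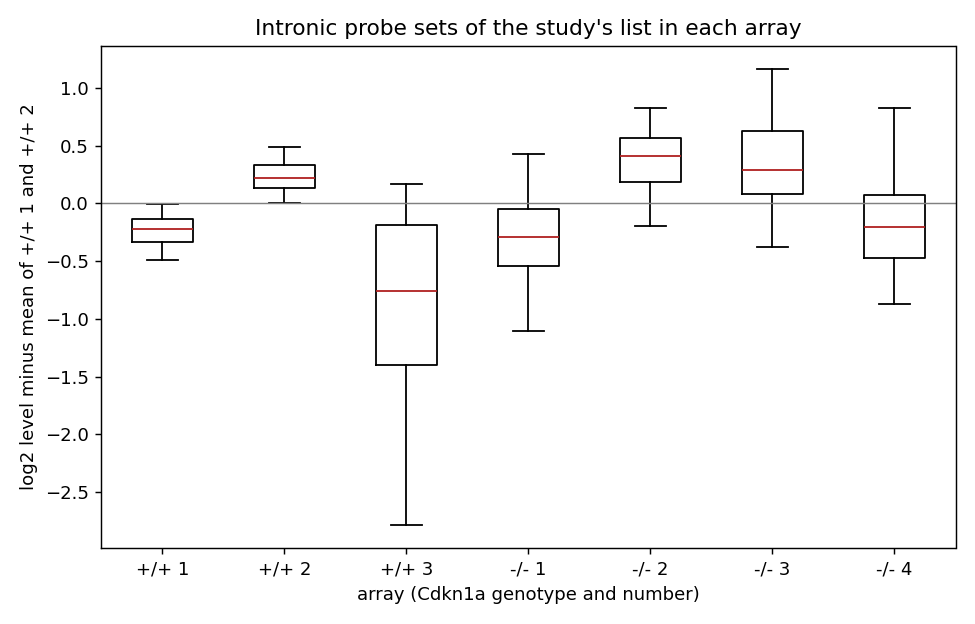
Log2 level of the 82 intronic probe sets in each array minus the mean of WT 1 and WT 2 (box, quartiles; red line, median; whiskers, 5th to 95th percentile). WT 3 has the lowest median, at -0.76, and the 4 nulls lie on both sides of 0, from -0.29 to 0.41.

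Among single intronic probe sets, Arid4b and Rfx7, a chromatin protein and a transcription factor, were higher by 1.36 and 1.32 (adjusted p = 0.178 and 0.276) and as high without WT 3, at 1.37 and 1.31. The probe set of Nrip1, a nuclear receptor corepressor, was at 9.08, 9.60 and 9.27 in WT and 10.04, 10.61, 10.07 and 10.19 in null (0.91, adjusted p = 0.193). Eps15l1 was lower by 0.88 (adjusted p = 0.125). Differences of the stem cell genes on the list moved with WT 3. Tcf4, the E2-2 transcription factor, was at 8.24, 8.80 and 5.10 in WT and 7.91 to 9.27 in null, and its change went from 1.16 to 0.02 without WT 3. Of 2 Msi2 probe sets, for the Musashi RNA-binding protein, one went from 1.27 to 0.07 and the other from 0.29 to -0.63, and those of Meis1 from 0.62 and 0.25 to -0.01 and -0.12. The intronic probe set of Angpt1 did the opposite, at 13.18 in WT 3 and 10.19 to 11.27 in the other arrays. Of 37 genes for splicing factors and related RNAs none was called, with a median of 0.07 (0.01), and Neat1, a nuclear noncoding RNA, was the only one beyond 1.5-fold, at -0.75 (adjusted p = 0.529).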

How the data were processed

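FL HSC of 3 Cdkn1a+/+ and 4 Cdkn1a-/- pools were hybridized to 1 array each. The authors deposited GCRMA log2 values, background corrected and quantile normalized within this set of arrays. No GCRMA version is given in the sources used here. The paper names the mouse genome build to which it mapped probe sets, whereas gene order and promoters here are from GRCm38.p6. Of 45101 probe sets, 64 controls were left out, and those reaching log2(100) in at least 1 array were tested with limma 3.58.1 (R 4.3.3), unpaired, with Benjamini-Hochberg adjustment. The p-values measure the spread between pools, whose number limits the precision. In lists a gene is represented by its brightest probe set outside the intronic list, and gene symbols came from the platform annotation. Named are probe sets of Cdkn1a, called ones (up to 20 lower and 15 higher, by size), up to 4 members of each list by p, the sort markers, the 5 neighbours of Cdkn1a on each side, intronic probe sets that passed or that the study follows, up to 10 called only without WT 3, the 3 markers highest in WT 3, and disagreeing probe sets of called genes. A few others were named after their values were seen. Members and lists were chosen with earlier results of these data known. The test was checked on simulated data.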

Additional observations from a re-analysis of the deposited data

Results flagged for a closer look

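The summed level of the Trim cluster genes was 21524 in null 3 and between 17837 and 18449 in the other nulls, so that the gap to the next null was 0.834 of the range of the 4. It stood apart by Dixon's criterion, as 1 of 52 items looked at (27 probe sets and 25 lists). Chance sets apart about 1 in 20 groups.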

How the results depend on the processing

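The count of called probe sets, 85, ranged from 38 to 87 when 1 sample was left out, and the count without WT 3, 83, from 42 to 75 when a further sample was left out, an alternative chosen after seeing the data. It was 42 with no filter on low values and 38 when the mean over all samples had to reach the minimum. The methods' t-test was run on the probe sets tested here, without the methods' filters on detection calls and interquartile range. Its counts are therefore not the study's own. Used unpaired, it gave 607 at the methods' unadjusted threshold and 36 after Benjamini-Hochberg, and paired on numbers 1 to 3 it gave 352 and 0. Other filters, scalings and variance models gave 58 to 101. With the replicate number as a block (numbers 1 to 3, null 4 left out), 6 were called. The deviations of same-numbered samples from their group means correlated at 0.252, 0.287 and -0.045. WT 1 and WT 2 correlated best with nulls 1 and 2, and WT 3 with null 4. Whether the numbers mark anything shared between samples was not tested, so the unpaired fit is not shown to be the better one. With low values raised to the minimum, 3 of the 5 called list genes stayed called. The cause of these differences was not tested. Over 30 named called probe sets and their alternatives, 226 of 324 values kept the call, 98 lost it (27 under the block) and 0 changed sign. Cdkn1a was called in none, at -1.23 to -2.16. The median of the intronic probe sets ranged from 0.06 to 0.62, and 18 of 250 list medians moved by more than their spread. GCRMA compresses low values near its floor, so folds of probe sets below the minimum in null depend on that floor.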
